A study of Drosophila melanogaster with 24 samples.

Results

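The chemoreceptor genes of *Drosophila melanogaster* were followed in single embryos that lack or carry *Acf*, as a set of genes that have no known work to do so early in life. A gene belonged to the set if its symbol was Or, Gr or Ir followed directly by a digit and the annotation listed it as protein-coding. This gave 179 of the 17370 genes counted, or of 13728 protein-coding genes: 59 odorant receptor (Or), 60 gustatory receptor (Gr) and 60 ionotropic receptor (Ir) genes. A further 7 symbols that match are pseudogenes and were left out. The rule uses symbols and annotation only.

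Chemoreceptors are membrane proteins through which larvae and adults smell, taste and sense temperature and humidity. Odorant receptors work as ion channels together with the shared co-receptor Orco. Gustatory receptors detect sugars, bitter compounds, carbon dioxide and warmth, and ionotropic receptors, which descend from glutamate receptors, work together with broadly expressed co-receptors such as Ir25a. Their genes are read in small sets of sensory neurons that differentiate late in embryogenesis or in metamorphosis, and they are silent in most other cells. ACF1, the product of *Acf*, is the regulatory subunit of the nucleosome remodelers ACF and CHRAC, which space nucleosomes with the ATPase ISWI.

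The 4 groups, each of 6 single embryos, were sequenced as rRNA-depleted total RNA. AcfC embryos came from a homozygous line with a CRISPR deletion of about 4 kb that removes most of *Acf* except its UTRs, made with a dsRed eye-marker donor and backcrossed to Oregon-R (OrR) for 8 generations. Wild-type embryos were OrR. Each genotype was collected at Bownes Stage 3 (preblastoderm, about 1 h, before zygotic genome activation, ZGA) and at Bownes Stage 8 (gastrula, about 4 h, after ZGA). Embryos were picked by hand and their sex is not in the labels. The study set aside an AcfC Stage 3 embryo for its staging without giving its number. It was taken here to be replicate 2, inferred from the study's tabulated group means, so replicate 2 is left out of the means and tests below except where a value is said to include it. Each embryo is a different animal, so p-values measure the spread between single embryos of each line. In whole embryos, fewer cells that express a gene and less RNA per cell cannot be told apart.

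Counts over all genes ran between 4213692 and 11935129 per embryo, and those on protein-coding genes between 2030997 and 7639980. Levels are given as CPM, the gene's counts scaled by the embryo's protein-coding total. *Acf* itself had 102 to 139 CPM in the 5 AcfC and 623 to 705 CPM in the 6 wild-type Stage 3 embryos, and 39.5 to 65.9 CPM against 465 to 497 CPM at Stage 8. The table does not show on which part of the gene the remaining counts lie. Summed maternal markers (5 genes with *bcd* and *osk*) had 45.3 to 121 CPM in Stage 8 embryos, against 2199 to 2815 CPM in Stage 3 embryos. Summed zygotic markers (7 genes with *eve* and *ftz*) had 773 to 1279 CPM at Stage 8 and 0.131 to 33.8 CPM at Stage 3. AcfC Stage 3 replicate 2 had the highest zygotic sum of Stage 3, 33.8 CPM. Of the Stage 3 embryos kept, AcfC replicates 1 and 4 had 24.5 and 14.7 CPM and wild-type replicate 3 had 21.5 CPM. The remaining Stage 3 embryos had 0.131 to 2.54 CPM. Among 4 follicle cell markers tested at Stage 3, 2 chorion genes were called higher in AcfC by edgeR, and the list of 10 summed to 2.04 to 30.6 CPM in the 5 AcfC embryos and to 0 to 4.02 CPM in wild type. The part of follicle cell RNA in the Stage 3 receptor values was not tested.

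The reads carry little on these genes. All 179 together received 9003 counts in 24 embryos. No count in any embryo fell on 56 of them (31.3%), whereas 1657 protein-coding genes (12.1%) were at 0 throughout. By family, 24 of 59 Or, 16 of 60 Gr and 16 of 60 Ir genes were at 0. Another 74 genes had between 1 and 10 counts in all 24 embryos together. Leaving out AcfC Stage 3 replicate 2, 65 genes had counts only after ZGA, 52 at both stages and 6 only before ZGA. Among the last, *Or67d*, the receptor for the male pheromone cis-vaccenyl acetate, had 9 counts in all and each of the other 5 had 1 count.

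Position limits what a count on a chemoreceptor gene means, since the libraries do not mark strand and hold intronic RNA. In the annotation 126 members share no base of their span with another gene and are called free here, 30 overlap an exon of another gene on either strand, and 23 share their span with another gene without exon overlap. By the authors' counting a read on exons of 2 genes was left uncounted. At least 90% of the exon bases were shared in 10 members, and none of these 10 had a count, the sugar receptor genes *Gr64b*, *Gr64c*, *Gr64d* and *Gr64e* among them. A 0 there says nothing about expression. Counts were seen for 14 of the 30 genes with exon overlap, for 20 of the 23 that share a span and for 89 of the 126 free genes. In tandem clusters, in which the nearest member lies within 10 kb, 53 of 82 members had a count and held 16.8% of the Stage 8 member counts. Outside clusters 70 of 97 members had a count.

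Before ZGA the summed level was low in both genotypes. The 179 genes summed to 12.4, 15.4, 14.2, 15.2 and 11.6 CPM in the 5 AcfC embryos, and to 15.0, 13.0, 17.2, 14.7, 13.6 and 17.9 CPM in the 6 wild-type embryos. The means were 13.8 ± 1.72 CPM (SD, n = 5) in AcfC and 15.2 ± 1.95 CPM (SD, n = 6) in wild type, and the ranges overlapped. AcfC replicate 2, left out, summed to 12.8 CPM. A single gene held most of it. *Or43b*, an odorant receptor gene of the adult antenna, held 69.1% of the member counts in AcfC and 59.9% in wild type. The gene (FBgn0026393, 2R:7920835-7922604, minus strand, release 6 coordinates) shares 40.7% of its exon bases with *Cul1*, a cullin of ubiquitin ligases, on the opposite strand. Its level was 9.60 ± 2.43 CPM in AcfC (SD, n = 5) and 9.25 ± 1.82 CPM in wild type (SD, n = 6) at Stage 3, and 11.4 ± 3.60 CPM in AcfC and 12.2 ± 1.94 CPM in wild type (SD, n = 6 each) at Stage 8. Reads on the shared bases were not counted, and for reads on its other exon bases the strand is unknown. Between genotypes at Stage 8 *Or43b* had a log2 fold change of −0.10 (adjusted p = 0.867 by edgeR), and *Cul1* was lower in AcfC, at −0.38 (adjusted p = 0.0878 by edgeR).

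After ZGA the summed level was more than 10 times as high. The Stage 8 sums were 163, 167, 148, 144, 239 and 224 CPM in AcfC embryos, and 155, 144, 143, 174, 138 and 170.4 CPM in wild-type embryos. The AcfC mean was 181 ± 40.5 CPM and the wild-type mean 154 ± 14.9 CPM (SD, n = 6 each), a ratio of 1.17. AcfC replicates 5 and 6 exceeded all wild-type embryos, whereas the remaining 4 AcfC sums fell inside the wild-type range. Without those 2 embryos, an alternative chosen after seeing the data, the AcfC mean was 155 ± 10.9 CPM (SD, n = 4), 1.19 CPM above wild type, and the mean number of genes detected was 53.5 in AcfC against 52.8 in wild type. The library indices in the labels form 2 sets, replicates 1 to 3 and 4 to 6. Within the first set the AcfC minus wild-type difference of the means was 11.5 CPM, and within the second it was 41.7 CPM. Against Stage 3, the Stage 8 mean was 13.1 times as high in AcfC and 10.1 times as high in wild type. Over free genes, which leave out *Or43b*, it was 31.2 times as high in AcfC and 17.7 times as high in wild type.

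**Figure D1:**
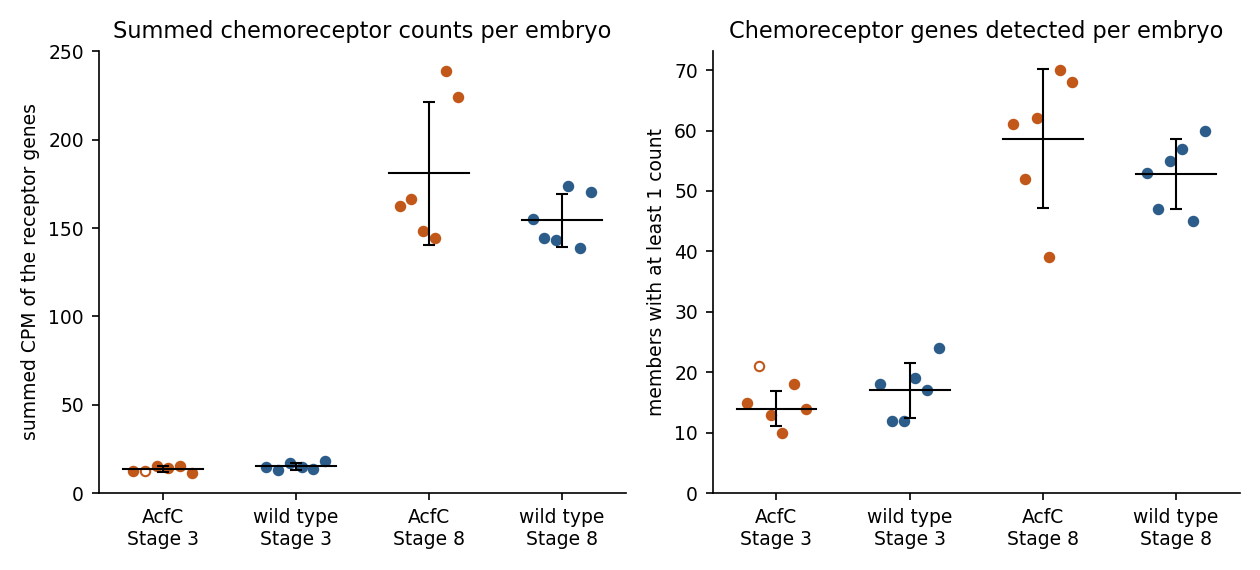
Summed CPM of the 179 chemoreceptor genes (left) and number with at least 1 count (right) in each embryo, by genotype and stage. Points are embryos, horizontal lines are means and bars are 1 SD, and the open point is AcfC Stage 3 replicate 2, left out of its mean. AcfC replicates 5 and 6 at Stage 8 (239 and 224 CPM) stand above the other embryos, and the remaining Stage 8 points of the genotypes overlap.

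The number of receptor genes detected was also low before ZGA and higher after it. With at least 1 count, 15, 13, 10, 18 and 14 genes were detected in the AcfC embryos of Stage 3 and 18, 12, 12, 19, 17 and 24 in wild type. The means were 14 ± 2.92 (SD, n = 5) in AcfC and 17 ± 4.56 (SD, n = 6) in wild type, with overlapping ranges, and AcfC replicate 2 had 21. At Stage 8 the numbers were 61, 52, 62, 39, 70 and 68 in AcfC and 53, 47, 55, 57, 45 and 60 in wild type, with means of 58.7 ± 11.5 and 52.8 ± 5.81 (SD, n = 6 each). AcfC replicates 1, 3, 5 and 6 lay above every wild-type embryo, and replicate 4, with 39 genes, lay below them all. Replicate 4 was also the shallowest embryo. When every embryo was thinned to its protein-coding total, the Stage 8 numbers were 45.6, 42.4, 43.1, 39, 57.4 and 61.2 in AcfC and 41.3, 39.1, 43.8, 45.2, 37.7 and 47.6 in wild type. Replicates 5 and 6 of AcfC again exceeded all wild-type embryos, with the remaining 4 within the wild-type range. Over all protein-coding genes the share detected at Stage 8 was 70.8% ± 2.99 in AcfC and 69.8% ± 1.91 in wild type (SD, n = 6 each).

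By family, the AcfC and wild-type means at Stage 8 lay close together for Or genes and further apart for Gr and Ir genes, and whether the families differ in this was not tested. Or genes summed to 37.4 ± 7.84 CPM in AcfC and 38.0 ± 4.19 CPM in wild type. Gr genes summed to 59.0 ± 19.1 CPM in AcfC and 44.3 ± 7.93 CPM in wild type, and Ir genes to 84.4 ± 16.5 CPM in AcfC and 71.9 ± 9.29 CPM in wild type (SD, n = 6 each). In each of the 3 families AcfC replicates 5 and 6 lay above every wild-type embryo, with Or sums of 44.8 and 47.6 CPM against at most 43.9 CPM in wild type. The other 4 AcfC embryos lay within or below the wild-type range for Or and within it for Ir, while for Gr 1 of them, replicate 2 (55.9 CPM), was also above the wild-type maximum of 55.0 CPM. Split by position, free genes summed to 105 ± 28.9 CPM in AcfC and 81.2 ± 7.76 CPM in wild type, genes with exon overlap to 25.6 ± 6.72 CPM in AcfC and 23.9 ± 4.25 CPM in wild type, and genes that share a span to 50.7 ± 8.48 CPM in AcfC and 49.2 ± 7.25 CPM in wild type. The difference of the means was widest for the free genes.

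**Figure D2:**
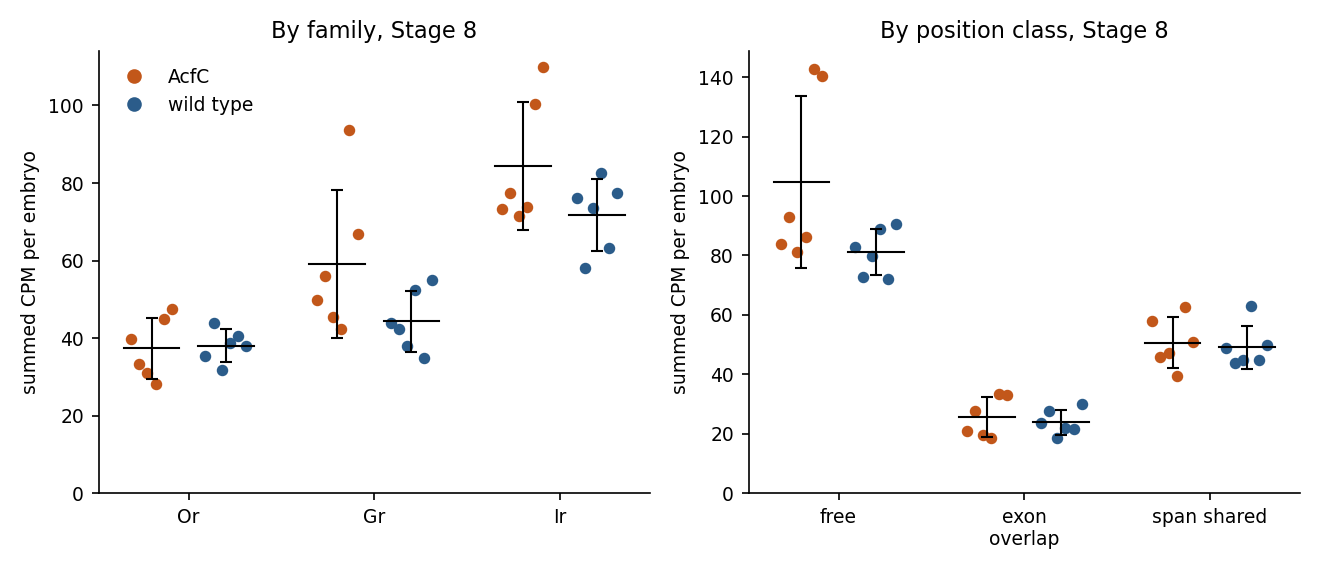
Summed CPM per Stage 8 embryo by receptor family (left) and by position class (right), AcfC left of wild type. Points are embryos, lines are means and bars are 1 SD. In the Gr, Ir and free sums AcfC replicates 5 and 6 lie above all wild-type embryos; the Or sums of both genotypes have means near 38 CPM.

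The 2 high embryos differed from the other 4 AcfC embryos mostly on a few genes. Their mean sum was 76.2 CPM higher, and 60.1% of this difference lay on 5 genes: *Ir25a* (19.7 CPM in the 2 embryos against 7.24 CPM in the other 4), *Gr59e* (16.5 against 5.27 CPM), *Gr59f* (15.5 against 5.34 CPM), *Ir68a* (34.1 against 27.8 CPM) and *Ir93a* (10.1 against 4.53 CPM). In all, 77 members were higher and 29 lower. The 2 embryos were picked for their high sums and the 5 genes for their differences, so these numbers follow in part from the choice. The share of all genes that were higher in the 2 embryos was not computed. Neuron markers were also highest in these embryos: *elav*, *nSyb*, *Syt1* and *brp* summed to 493 and 459 CPM in AcfC replicates 5 and 6, to 342 to 429 CPM in the other AcfC embryos and to 311 to 418 CPM in wild type. Most of this was *elav* (403 ± 55.5 CPM in AcfC and 378 ± 38.2 CPM in wild type, SD, n = 6 each), while *nSyb*, *Syt1* and *brp*, which mark mature synapses, averaged 1.59 to 4.68 CPM in AcfC and 0.755 to 2.28 CPM in wild type. Of the 4, edgeR called 0 between genotypes at Stage 8, with 1 at an unadjusted p under 0.05 and 1 called by DESeq2 (*brp*). Zygotic patterning markers were at 1171 and 804 CPM in the 2 embryos, at 929 to 1279 CPM in the other AcfC embryos and at 773 to 1074 CPM in wild type. The part of embryo age or neuron number in the higher sums was not tested.

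Gene by gene, most receptors had too few counts to be tested between genotypes. The test of each gene was the quasi-likelihood test of edgeR, fitted over all protein-coding genes with counts in more than 50% of the embryos compared and called at an adjusted p under 0.1. After ZGA 45 of the 179 genes could be tested and 1 was called, higher in AcfC, in a comparison where 4.28% of all 9448 genes tested were called and 2.22% were called higher. The share of members called was thus near that of all genes. At an unadjusted p under 0.05 there were 7 of the 45 members and 1531 of the 9448 genes. Before ZGA 11 members could be tested and 0 were called, where 12.0% of all 7303 genes tested were called. An unadjusted p under 0.05 was reached by 1 of these 11 members and by 1794 of the 7303 genes. DESeq2 also called 1 member after ZGA and 0 before. The test of whether the genotype effect differed between stages (interaction) covered 33 members and called 0, against 2.72% of all genes tested. DESeq2 also called 0 of them. Of the 33 members 3 had an unadjusted p under 0.05, and of all 8698 genes 1330 had. *Ir21a*, *Or22c*, *Ir31a*, *Ir56a*, *Ir62a* and *Ir100a* had no Stage 3 count in this fit, so no interaction could be estimated or called for them. Others, such as *Gr32a* and *Ir68a*, had no count in 1 of the Stage 3 groups, and the size of their interaction had no finite estimate.

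The member called was *Ir25a* (FBgn0031634, 2L:4830846-4835300, minus strand), a co-receptor for many ionotropic receptors in smell, taste and the sensing of cool and humid air. It had 30, 38, 52, 10, 60 and 63 counts in the AcfC embryos of Stage 8, against 24, 23, 16, 24, 13 and 16 counts in wild type. In CPM this was 6.17, 8.71, 9.14, 4.92, 16.6 and 22.9 in AcfC and 4.87, 6.40, 3.64, 6.01, 3.53 and 3.77 in wild type. In AcfC 4 of the 6 embryos exceeded all wild-type embryos and 2 fell within their range. The log2 fold change came to 1.25 with a standard error of 0.342 (adjusted p = 0.0763 by edgeR). Without AcfC replicates 5 and 6 it was 0.64 (adjusted p = 0.284 by edgeR), and in 8 of the 12 fits without 1 embryo the call was lost. The gene is free, and *tank*, which begins 35 bp away on the same strand, had a log2 fold change of 0.09 (adjusted p = 0.617 by edgeR). Before ZGA *Ir25a* had at most 2 counts in any embryo.

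**Figure D3:**
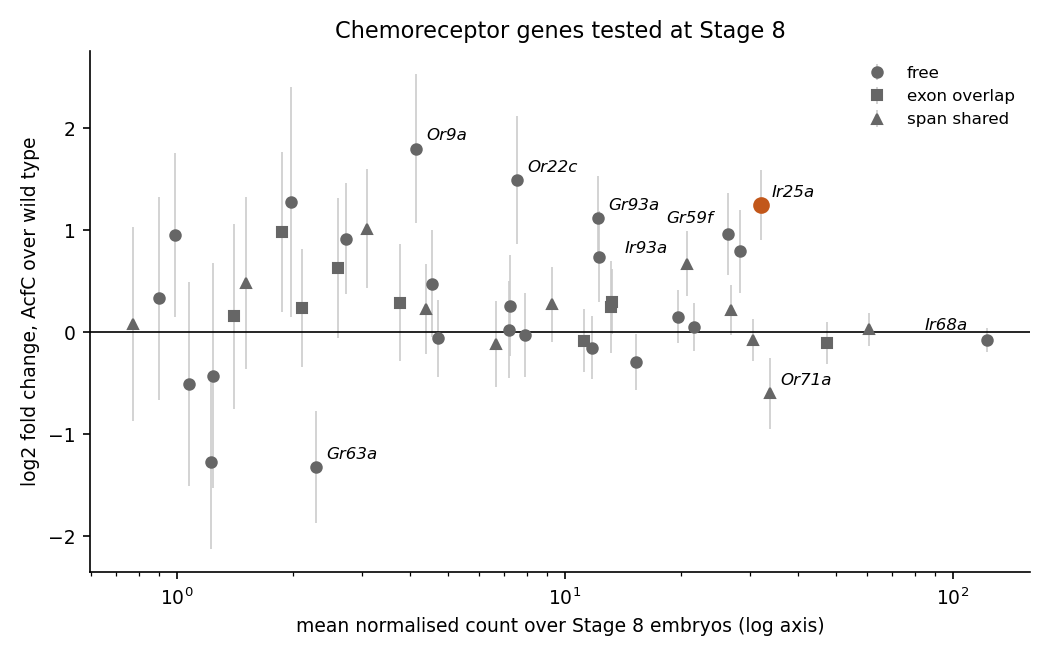
Log2 fold change of AcfC over wild type at Stage 8 against the mean normalised count (log axis) for the 45 chemoreceptor genes tested. Each symbol is a gene with its standard error, the marker gives its position class, and the gene in colour is *Ir25a* (1.25), the 1 called. Genes with few counts scatter widely, and *Ir68a*, the gene with the most counts, lies at −0.08.

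Across the 45 members tested after ZGA the median log2 fold change was 0.24, and 31 were positive. Over all 9448 genes tested the median was 0.01, with 52.3% positive. Most receptor genes are among the least expressed genes, and 26 of the 45 fell in the lowest quartile of expression. In that quartile the members had a median of 0.27 with 19 of 26 positive, and all 2362 genes had a median of 0.24 with 63.1% positive. The members thus lay close to other genes of that level. By family the medians were 0.05 for 13 Or genes (7 positive), 0.25 for 17 Gr genes (13 positive) and 0.26 for 15 Ir genes (11 positive). Before ZGA the 11 members tested had a median of −0.70 with 4 positive, against 0.00 over all genes tested.

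Co-receptors came next by role. *Ir93a*, a co-receptor for temperature and humidity sensing, had 3.45 to 12.2 CPM in AcfC embryos of Stage 8 and 2.44 to 4.96 CPM in wild type, with a log2 fold change of 0.68 (adjusted p = 0.307 by edgeR). *Ir8a*, the co-receptor of acid-sensing ionotropic receptors, had 22 counts in the 6 AcfC embryos and 12 in the 6 wild-type embryos, at a log2 fold change of 1.02 (adjusted p = 0.396 by edgeR). *Ir76b*, another co-receptor, had 0 counts in AcfC and 2 in wild type at Stage 8 and was not tested. Orco, which every odorant receptor needs, had 0 counts in AcfC and 2 counts in wild type at Stage 8 and 0 at Stage 3. A group total of 3 counts, taken here as the floor, corresponds to 0.129 CPM in AcfC and 0.121 CPM in wild type at Stage 8. The Stage 8 totals of *Ir76b* and Orco lie below it in both genotypes.

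The receptor with the most counts after ZGA was *Ir68a* (FBgn0036150, 3L:11232972-11236218, minus strand, free), which serves in the sensing of moist air. It had 28.4, 28.7, 26.0, 28.1, 31.2 and 37.0 CPM in AcfC embryos and 32.0, 22.0, 36.4, 33.0, 30.9 and 33.0 CPM in wild type. In AcfC 5 of the 6 values fell inside the wild-type range, and the log2 fold change was −0.08 with a standard error of 0.120 (adjusted p = 0.816 by edgeR). Per kb of exon the mean level was 12.2 CPM in AcfC and 12.8 CPM in wild type. It held 16.5% of the AcfC and 20.4% of the wild-type member counts at Stage 8. Without it the genotype sums were 151 ± 37.5 CPM in AcfC and 123 ± 14.2 CPM in wild type (SD, n = 6 each). At Stage 3, *Ir68a* had 0 counts in the 5 AcfC embryos and 1 count in 1 of the 6 wild-type embryos. The Stage 8 level was at least 271-fold higher in AcfC, against a floor of 3 counts over the Stage 3 group, and 1180-fold higher in wild type (95% counting interval 212 to 46700). *Ir40a*, which works in dry-air sensing, had 1.38 to 3.94 CPM in AcfC and 1.36 to 3.76 CPM in wild type at Stage 8 (log2 fold change −0.15, adjusted p = 0.863 by edgeR).

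*Ir40a*, named here after its values were seen, was also the member with the lowest p before ZGA. Its Stage 3 counts were 0, 2, 0, 0 and 0 in the AcfC embryos, against 1, 7, 5, 1, 1 and 4 in the wild-type embryos. All wild-type embryos had a count and 4 of the 5 AcfC embryos had none. The log2 fold change was −2.49 with a standard error of 1.13 (adjusted p = 0.153 by edgeR), short of the cutoff. With AcfC replicate 2, which had 0 counts, it was −2.70 (adjusted p = 0.0845 by edgeR). Without AcfC replicate 3, the 1 embryo with counts, the AcfC group was all at 0 and the adjusted p was 0.0686 by edgeR. Every other fit without 1 embryo gave an adjusted p of 0.141 to 0.281 by edgeR. DESeq2 gave 0.168 on all embryos of the means, and no other alternative run of this Stage 3 comparison called the gene. The interaction called it without AcfC Stage 3 replicate 3 (log2 fold change 4.21, adjusted p = 0.0515 by edgeR), and in no other run.

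Sugar receptors gave few counts. *Gr43a*, the fructose receptor, had 1.48 to 5.04 CPM in AcfC and 1.90 to 3.77 CPM in wild type at Stage 8, at a log2 fold change of −0.08 (adjusted p = 0.938 by edgeR). *Gr61a* was, beside *Or43b*, the receptor gene with counts in all 11 Stage 3 embryos: it had 7, 3, 2, 1 and 20 counts in the 5 AcfC embryos and 13, 9, 4, 14, 13 and 27 counts in the 6 wild-type embryos. The means were 1.08 ± 1.03 CPM in AcfC (SD, n = 5) and 2.05 ± 0.954 CPM in wild type (SD, n = 6), with overlapping ranges, and the log2 fold change was −0.85 (adjusted p = 0.351 by edgeR). At Stage 8 its means were 1.82 ± 1.20 CPM in AcfC and 1.79 ± 0.995 CPM in wild type (SD, n = 6 each). Stage 8 over Stage 3, the pooled ratio was 1.55 in AcfC (95% counting interval 0.963 to 2.52) and 0.849 in wild type (0.576 to 1.24). *JMJD5*, which lies 91 bp away on the opposite strand, fell between the stages (log2 fold change −1.77 in AcfC and −1.92 in wild type, called by edgeR in both). *Gr5a*, the trehalose receptor, had 7 counts in AcfC and 3 in wild type at Stage 8, *Gr64a* had 1 and 2, and *Gr64f* had 13 and 12.

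Bitter receptors had few counts too. *Gr33a*, the broad co-receptor of bitter taste, had 0 counts in all 24 embryos. *Gr66a* had 48 counts in AcfC and 50 in wild type at Stage 8 (log2 fold change −0.03, adjusted p = 0.986 by edgeR). *Gr93a*, which serves caffeine taste, had 20, 34, 28, 7, 10 and 5 counts in AcfC and 7, 7, 6, 12, 2 and 14 counts in wild type. In CPM, AcfC replicates 1 to 4 lay above every wild-type embryo and replicates 5 and 6 within the wild-type range, and the log2 fold change was 1.12 with a standard error of 0.406 (adjusted p = 0.178 by edgeR). The carbon dioxide receptor *Gr63a* had 7 counts in AcfC and 20 in wild type at Stage 8 (log2 fold change −1.32, adjusted p = 0.221 by edgeR). Its partner *Gr21a* had 3 counts in AcfC and 0 in wild type. *Gr28b*, a receptor for warmth, had 3 counts in AcfC and 2 in wild type.

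A pair of neighbouring genes was high in AcfC replicates 5 and 6. *Gr59e* (2R:23541054-23542379, minus strand) and *Gr59f* (2R:23542510-23543885, plus strand) lie 131 bp apart. *Gr59e* had 31, 19, 28, 11, 77 and 32 counts in AcfC embryos of Stage 8, against 41, 18, 16, 14, 13 and 28 in wild type. *Gr59f* had 31, 24, 26, 10, 73 and 30 counts in the same AcfC embryos, against 24, 18, 14, 16, 7 and 32 in wild type. In CPM, AcfC replicate 5 was the highest embryo for each gene, with 21.3 CPM for *Gr59e* and 20.2 CPM for *Gr59f*, against wild-type maxima of 8.31 and 7.55 CPM. The log2 fold changes were 0.79 for *Gr59e* (adjusted p = 0.348 by edgeR) and 0.97 for *Gr59f* (adjusted p = 0.246 by edgeR). Without strand, RNA that runs across both genes cannot be told apart from their own transcripts.

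Outside the named roles, *Or22c* (adjusted p = 0.245 by edgeR) and *Or9a* (1.80, adjusted p = 0.221 by edgeR), chosen after their values were seen, had an unadjusted p under 0.05 at Stage 8. *Or22c* had 25 counts in AcfC replicate 5 and 5 to 8 in the other AcfC embryos, against 1 to 9 in wild type, so the ranges overlapped.

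**Figure D4:**
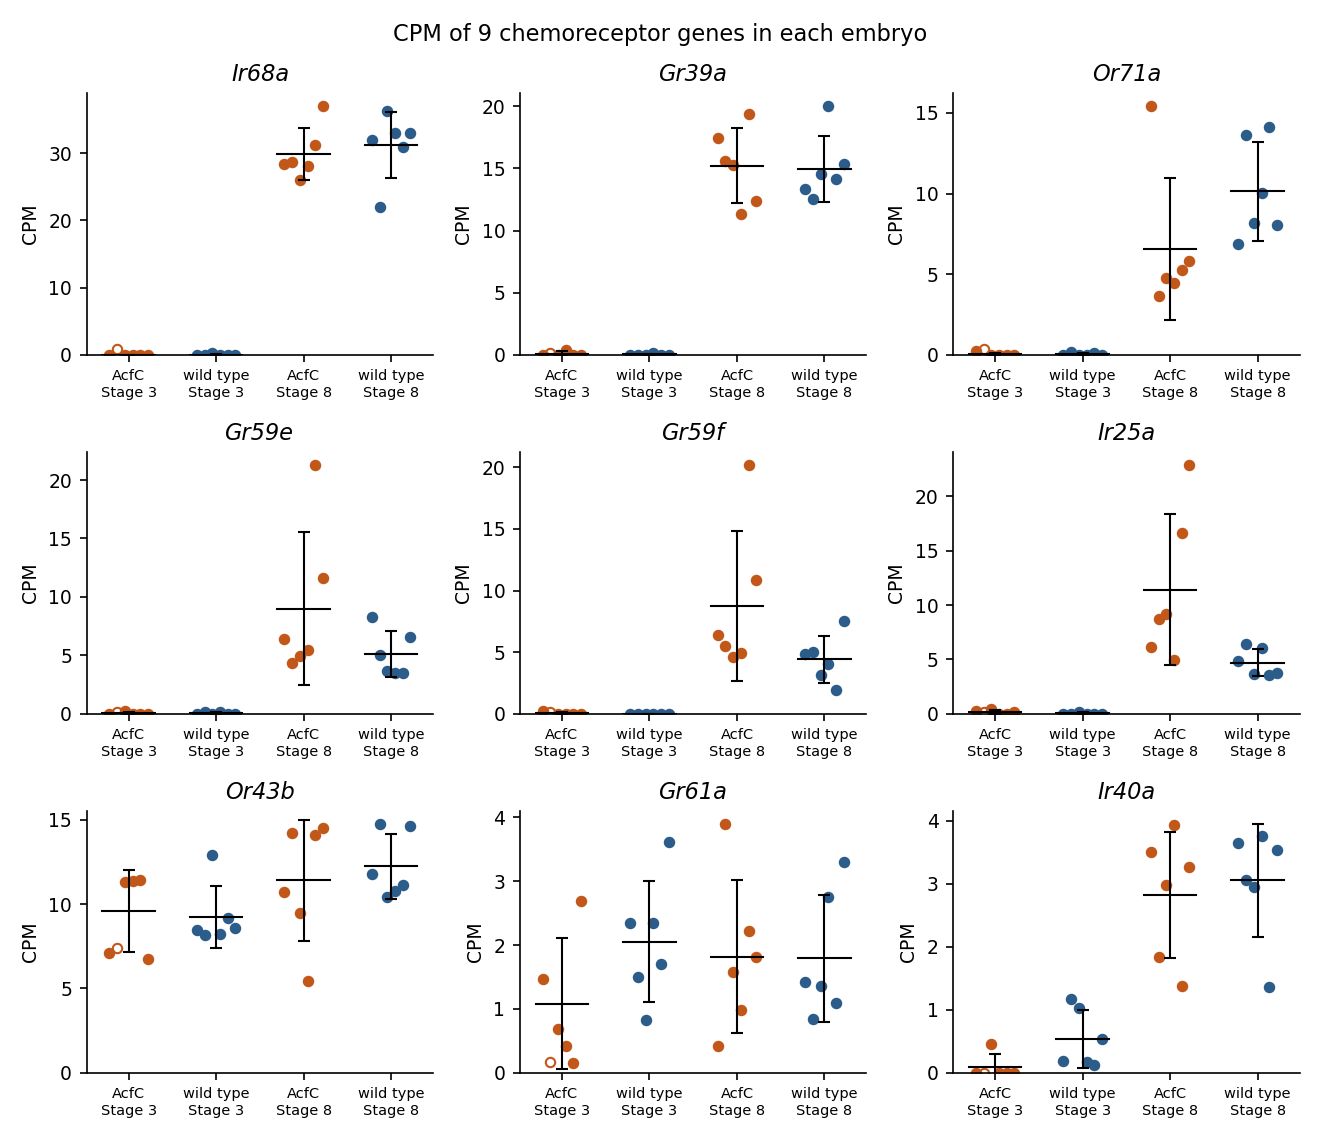
CPM of 9 chemoreceptor genes in each embryo, by genotype and stage. Points are embryos, lines are means, bars are 1 SD, and the open point is AcfC Stage 3 replicate 2. *Ir68a*, *Gr39a*, *Or71a*, *Gr59e*, *Gr59f* and *Ir25a* are near 0 at Stage 3, while *Or43b* and *Gr61a* have counts at both stages; AcfC replicate 1 stands alone for *Or71a* (15.4 CPM).

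Some of the named receptor genes lie inside other genes, whose values are given beside them. *Or71a*, an odorant receptor of the maxillary palp (3L:15076907-15078447), lies on the same strand within *Plp*, which encodes the pericentrin-like protein of centrosomes. At Stage 8 it had 15.4, 3.67, 4.75, 4.43, 5.25 and 5.81 CPM in AcfC and 6.89, 13.6, 8.18, 10.0, 14.1 and 8.02 CPM in wild type. In AcfC, 5 embryos lay below every wild-type embryo and replicate 1 above all of them. The log2 fold change was −0.60 (adjusted p = 0.422 by edgeR), and without AcfC replicate 1 it was −1.11 (adjusted p = 0.0454 by edgeR). That embryo is singled out here after its value was seen. The other fits without 1 embryo gave an adjusted p of 0.408 to 0.584 by edgeR, and no other alternative run called *Or71a*. *Plp* itself was lower in AcfC, with a log2 fold change of −0.51 (adjusted p = 0.0452 by edgeR). *Gr39a*, a gustatory receptor with a part in courtship that lies within *Mondo*, had 15.2 ± 3.03 CPM in AcfC and 15.0 ± 2.65 CPM in wild type (SD, n = 6 each; log2 fold change 0.03, adjusted p = 0.954 by edgeR), and *Mondo* had a log2 fold change of −0.04 (adjusted p = 0.844 by edgeR). *Ir62a* had a log2 fold change of 0.22 (adjusted p = 0.720 by edgeR), and its host *Iml1* one of 0.11 (adjusted p = 0.515 by edgeR). *Ir51b* had one of −0.08 (adjusted p = 0.898 by edgeR), and its host *row* one of −0.10 (adjusted p = 0.564 by edgeR). Among all tested genes that overlap a member or lie close to one, *CG34353* differed most between genotypes at Stage 8. Its log2 fold change was 4.63 (adjusted p = 0.000808 by edgeR).

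*Ir100a*, also named after its values were seen, lies near the deletion, 1164 bp beyond the end of *Acf* on chromosome 3R (31800963 to 31802774). It had 7, 7, 11, 2, 9 and 3 counts in AcfC embryos of Stage 8, against 12, 1, 8, 10, 3 and 11 in wild type. The ranges overlapped and the log2 fold change was −0.11 with a standard error of 0.422 (adjusted p = 0.938 by edgeR). At Stage 3 it had 0 counts in every embryo of the means.

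Between Stage 3 and Stage 8, 34 of 36 members tested rose in AcfC, where 51.5% of all 8836 genes tested rose. In wild type 21 of 22 members tested rose, where 48.5% of all 8103 genes tested did. Of these members, 30 in AcfC and 20 in wild type fell in the lowest quartile of expression. In that quartile 87.2% of all 2209 genes in AcfC and 79.4% of all 2025 in wild type had a positive log2 fold change. The members there were positive in 30 of 30 and 19 of 20 cases. No member was called lower in either of these fits, and the genes called in both genotypes numbered 20. DESeq2 called 35 in AcfC and 21 in wild type, all higher. These counts depend on the filter: in wild type a gene had to have a count in at least 1 of the 6 Stage 3 embryos, whereas in AcfC counts in all 6 Stage 8 embryos were enough, and a gene that passed through its Stage 8 counts alone had to differ. In AcfC 13 of the 36 had no Stage 3 count, and of the other 23 genes 21 rose. A gene among these 23 could also pass through its Stage 8 counts. The counts are therefore given as a description. The members at 0 in most embryos were not tested.

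*Gr39a* had 2 counts at Stage 3 and 367 at Stage 8 over the AcfC embryos, a pooled ratio of 218 (95% counting interval 60.0 to 1810), and 1 and 372 counts in wild type, a ratio of 562 (100 to 22200). Its host *Mondo*, a glucose-responsive transcription factor, rose by a log2 fold change of 0.98 in AcfC and 0.97 in wild type. *Or71a* had ratios of 193 in AcfC (34.1 to 7660) and 185 in wild type (50.7 to 1540), while *Plp* rose by a log2 fold change of 0.85 in AcfC and 1.34 in wild type. Both hosts were called by edgeR in both genotypes, and the difference between receptor and host was not tested. Among free genes, *Ir25a* had ratios of 75.3 in AcfC (29.0 to 278) and 175 in wild type (30.8 to 6980), *Gr59e* of 236 in AcfC (41.8 to 9360) and 98.1 in wild type (26.6 to 819), and *Gr47b* of 92.8 in AcfC (16.2 to 3710) and 78.5 in wild type (13.5 to 3160). *Gr32a*, a bitter receptor that also restrains courtship between males, was at least 30.6-fold higher at Stage 8 in AcfC and 110-fold higher in wild type (19.2 to 4410). *Or22a*, an antennal receptor for fruit esters, had ratios of 94.0 in AcfC (16.4 to 3760) and 77.7 in wild type (21.0 to 651). *Or85f*, which responds to odours of parasitoid wasps, and *Ir51b* had ratios of 11.3 (6.35 to 21.8) and 34.1 (15.4 to 94.3) in AcfC and 21.6 (11.1 to 48.4) and 21.2 (12.4 to 39.6) in wild type. Each of these 9 genes was called higher by edgeR in both genotypes. They were picked among the called members with the largest wild-type stage change, so the wild-type calls follow from the choice. In AcfC all 9 had counts in each Stage 8 embryo, which was enough to pass the filter. *Gr32a* had 0 counts in the 5 AcfC embryos of Stage 3. No p-value is given for these calls, which are a description.

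Counts after ZGA were spread over more genes than before. At Stage 8 the 5 leading members held 42.8% of the member counts in AcfC and 49.5% in wild type, and at Stage 3 they held 84.7% in AcfC and 81.6% in wild type. All 12 Stage 8 embryos had a count for 31 members, 17 of them free, and 9 members had at least 10 counts in each: *Ir25a*, *Ir31a*, *Gr39a*, *Or43b*, *Ir51b*, *Gr59e*, *Ir62a*, *Ir68a* and *Or85f*. In all 11 Stage 3 embryos of the means a count was seen only for *Or43b* and *Gr61a*. Per kb of exon, the highest Stage 8 means after *Ir68a* were those of *Or43b* (8.08 CPM in AcfC and 8.67 in wild type), *Gr59e* (7.50 in AcfC and 4.25 in wild type), *Gr59f* (7.16 in AcfC and 3.62 in wild type), *Or85f* (4.68 in AcfC and 4.41 in wild type) and *Or71a* (4.58 in AcfC and 7.08 in wild type).

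Other genes of chemosensation, and opsins as another family of sensory receptors, were mostly too low to test. Of 52 odorant-binding protein genes 11 were tested at Stage 8 and edgeR called 0 between genotypes, with 2 at an unadjusted p under 0.05 and 1 called by DESeq2. Of 5 regulators of sensory neuron fate, *acj6*, *pdm3*, *ato*, *amos* and *lz*, all 5 were tested with 0 called by edgeR, 1 at an unadjusted p under 0.05 and 1 called by DESeq2. The 5 *CheA* and *CheB* genes tested of 20, the 3 opsins of 7, the 3 pheromone channels (*ppk23*, *ppk25* and *ppk29*) and 1 of 2 *Snmp* genes gave 0 calls by either tool and 0 at an unadjusted p under 0.05. The median log2 fold change was 0.35 for the odorant-binding proteins, 0.42 for the regulators, 0.42 for the opsins and 0.19 for the pheromone channels, and it was −0.35 for *CheA* and *CheB*. The 1 *Snmp* gene had −0.13. Over all genes tested the median was 0.01, and 0.24 in the lowest quartile of expression. Between stages, 51.5% of all genes tested rose in AcfC and 48.5% in wild type. Of the odorant-binding protein genes tested 4 of 8 rose in AcfC and 4 of 5 in wild type, and 2 of 3 opsins rose in each genotype. For *CheA* and *CheB* this was 1 of 1 in AcfC and 3 of 3 in wild type. Pheromone channels rose in 2 of 2 cases and *Snmp* in 1 of 1 in each genotype. Among the regulators 4 of 5 rose and 1 fell in AcfC, and 2 of 4 rose and 0 fell in wild type.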

How the data were processed

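Total RNA of single embryos was sequenced after rRNA depletion in libraries that do not keep strand. The authors mapped reads with STAR 2.5.0a (version from the submitters' processing notes) to dmel_r6.09 and deposited raw gene counts, in which a read on exons of 2 genes is not counted. All 24 columns were mapped to samples and 0 were left over. Members and lists were chosen with earlier results of these data known. Coordinates came from the Ensembl annotation of the same release 6 assembly. Only protein-coding genes detected in more than 50% of the embryos of a comparison were kept, and edgeR 4.0.16 (R 4.3.3, limma 3.58.1) was run with TMM factors and the quasi-likelihood test, Benjamini-Hochberg adjusted over all genes tested, at 0.1. DESeq2 1.42.0, other filters, scalings and embryos left out were alternatives. The scripts were tested on simulated data. Summed CPM, detection and detection after thinning to the shallowest embryo (100 draws) are descriptions with no test. Named genes are the members called between genotypes, the 10 highest per kb of exon, the 10 with the largest wild-type stage change and receptors listed by role. Ratios between stages carry exact 95% intervals that cover counting error only, and a floor of 3 counts over the group stood for a group at 0. Spike-in values were not used here.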

Additional observations from a re-analysis of the deposited data

Results flagged for a closer look

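Among 64 groups of values examined, 2 held an embryo far from the rest of its group, and chance alone marks about 1 in 20 groups. *Or43b* had 12.9 CPM in wild-type Stage 3 replicate 3 and 8.18 to 9.16 CPM in the other wild-type embryos of that stage. *Or71a* had 15.4 CPM in AcfC Stage 8 replicate 1 and 3.67 to 5.81 CPM in the other AcfC embryos of that stage.

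AcfC Stage 3 replicate 2, left out of the reported means and tests, had counts on 2 receptor genes above the level of the other Stage 3 embryos. *Ir31a* had 0.504 CPM in it (3 counts) and 0 in each of the other 11. *Ir68a* had 0.84 CPM (5 counts) and 0 to 0.205 CPM in the others.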

How the results depend on the processing

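The genotype differences of the summed CPM and of the number detected moved by less than 1 SD under each alternative run, an SD that at Stage 8 includes AcfC replicates 5 and 6. Each of these differences was itself smaller than 1 SD, so a fall to 0 would also have passed this check. None of the differences changed sign, but the Stage 3 difference in number was 0 within the first index set. At a minimum of 3 counts the mean number detected at Stage 8 was 32 in AcfC and 31.5 in wild type. At a minimum of 10 counts it was 18.7 in AcfC and 18.2 in wild type. Without AcfC replicates 5 and 6 the Stage 8 differences were 1.19 CPM and 0.667 genes, against 26.6 CPM and 5.83 genes with them. Leaving out 1 embryo gave sums differing by −1.922 to −0.933 CPM at Stage 3 and 14.97 to 33.91 CPM at Stage 8, and numbers differing by −4 to −1.6 and 3.567 to 9.767. The receptor genes called between genotypes at Stage 3 numbered 1 with AcfC replicate 2 kept (*Ir40a*) and 0 to 1 without 1 embryo. At Stage 8 they numbered 0 at an adjusted p under 0.05, 0 with both AcfC replicates 5 and 6 left out (chosen after seeing the data) and 0 to 2 without 1 embryo, and the interaction gave 0 to 1 without 1 embryo. *Or71a* was the second Stage 8 call, without AcfC replicate 1, and *Ir40a* was the interaction call, without AcfC Stage 3 replicate 3. Same-numbered embryos did not deviate together (correlations −0.479 to 0.276), so the numbers do not pair them. With the replicate block 0 receptor genes were called at Stage 3, 0 at Stage 8 (*Ir25a*: log2 fold change 1.13, adjusted p = 0.185 by edgeR), 21 and 34 between stages in wild type and AcfC, and 0 in the interaction.

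Between stages, calls in AcfC numbered 65 of 112 tested with no filter (64 higher, and *Or67d* lower), 15 of 15 with filterByExpr, 20 with replicates 5 and 6 left out and 20 to 35 without 1 embryo. In wild type they numbered 58 of 100 (57 higher, and *Or7a* lower), 12 of 13 and 21 to 34 without 1 embryo, with *Ir60d* lower without Stage 3 replicate 1 or 4. These follow the number of genes tested. The Stage 8 minus Stage 3 sum was 79.35 CPM in AcfC and 65.32 CPM in wild type with counts of all genes as the denominator, 101.3 and 76.62 CPM over free genes, 137.2 and 107.8 CPM with *Ir68a* left out, and 155.5 to 174.4 and 135.1 to 142.2 CPM without 1 embryo. The numbers detected differed by 29.2 in AcfC and 27.17 in wild type at a minimum of 3 counts, 17.47 and 16.5 at 10 counts, 25.5 and 21.17 over free genes, and 42.4 to 48.6 and 34.4 to 37.4 without 1 embryo. With 9003 counts on 179 genes, most single receptors could not be tested.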
